A study of Mus musculus with 13 samples.

Results

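The genes described here are 10 genes of the blood cell lineages, Pax5, Ebf1, Bach2, Cd79b, Spi1, Ikzf1, Ikzf3, Bcl11a, Bcl11b and Ptprc, as seen through 5-hydroxymethylcytosine (5hmC) in mouse knee cartilage. Every listed region whose nearest gene, as the authors annotated it, is 1 of these 10 was taken, without regard to its values. This gave 142 of the 181833 regions listed in 3 comparisons. The comparisons are WT DMM against WT sham (24 of 43378 regions), MUT DMM against WT DMM (49 of 65969) and MUT DMM against WT sham (69 of 72486). WT is TET1+/+ and MUT carries the genotype written TET-/- in the labels. All mice were males of the strain B6;129S4 sampled 6 weeks after surgery, aged 4 to 6 months by the treatment protocol and 3 to 4 months by the design text. In DMM the medial meniscus was taken out of the knee; in sham the joint was opened only, and a control knee was the opposite leg of the animal. The labels list 3 samples for each of these groups, and do not say which part of the gene the mutant lacks or in which cells. Samples of MUT sham and the background control were not used here, and what the genotype does without surgery was not tested.

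TET enzymes oxidise 5-methylcytosine to 5hmC, a mark found mostly in the bodies and at the enhancers of genes. The 10 genes are known from blood and bone marrow, which lies next to the cartilage and subchondral bone of the knee. Pax5 and Ebf1 commit cells to the B lineage, Bach2 is a repressor that holds B and T cells in an early state, and Cd79b is a signalling chain of the B cell receptor. Spi1 (PU.1) directs myeloid and early B cell fates. Ikzf1 (Ikaros) and Ikzf3 (Aiolos) are zinc finger factors of lymphocytes, Bcl11a acts in B cells and in globin switching, and Bcl11b commits cells to the T lineage. Ptprc encodes CD45, the phosphatase on the surface of nucleated blood cells. Ebf1 is also used by marrow stroma and fat precursors, and Bcl11a and Bcl11b by neurons, so a mark at these genes does not identify a blood cell. The DNA came from whole pieces of tissue, in which fewer cells of a type and less 5hmC per cell cannot be told apart.

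The method, reduced representation hydroxymethylation profiling, reads 5hmC at CCGG, the site cut by the enzyme MspI. The upstream sequence of Ikzf1 is shown because it was the only one of the 10 promoter windows found for 7 of the genes that listed regions touched. It covers the 250 bases before the RefSeq start at 11685925 on the plus strand of GRCm38.p6, chr11:11685675-11685924, written 5′ to 3′ with each CCGG in capitals.
Ikzf1: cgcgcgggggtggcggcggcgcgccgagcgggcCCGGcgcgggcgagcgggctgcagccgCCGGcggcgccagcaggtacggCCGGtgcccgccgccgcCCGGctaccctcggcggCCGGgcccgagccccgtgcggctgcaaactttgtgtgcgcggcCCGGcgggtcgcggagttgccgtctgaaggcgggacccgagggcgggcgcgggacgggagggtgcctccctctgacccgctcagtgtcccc
CCGG reads the same on both strands, and this window holds 6 of them in 82.0% G and C with 44 CG dinucleotides. Among 32851 RefSeq windows of this length 47.1% hold a CCGG, and 2.38% hold at least 6. The region chr11:11685801-11686000 covered 1 of these sites and ran past the start, and chr11:11685481-11685680 reached 6 bases into the window without covering one. The remaining 5 sites lay in no listed region at this gene. Of the 10 windows 5 held a CCGG. The promoter table had none for Ikzf3, Spi1 or Cd79b.

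Values are normalized counts, which the authors scaled within each comparison, so levels are compared only within one. The value of 1 sequenced read shows the depth. In WT DMM against WT sham a read was worth 15.7, 1.33 and 1.04 normalized counts in the WT DMM libraries, in the order listed, and 0.320, 0.715 and 0.171 in the sham libraries. Of the WT DMM libraries the first-listed held almost no reads and is called near-empty: it was at 0 in 95.8% of the regions of that comparison and in 23 of the 24 at these genes. Of the 3 MUT DMM entries a pair were identical in every region and were counted as 1 sample, so MUT DMM has n = 2, a deeper library and a shallower one, with 5889464 and 407929 reads in the regions listed against WT DMM. Against sham a read of the deeper library was worth 0.736 normalized counts and a read of the shallower one 9.45. A count of 0 allows up to 2.21 normalized counts in the deeper library and up to 28.3 in the shallower one, counting error only. Replicates are termed biological in the design text, which does not state that each is its own animal, so a p-value here measures only how these libraries spread, which may be technical.

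After DMM in WT cartilage, 22 of the 24 regions at these genes were called higher than in sham and 2 lower (a region was called where the authors' adjusted p was under 0.05, which held for all 24 and for 99.7% of the table). The background was close to this, with 93.2% of all 43378 regions called higher and 6.53% called lower. The higher regions had a median of 7.13 normalized counts after DMM and 2.62 in sham, against 7.63 and 2.77 over all regions called higher. The 2 lower regions, at Ebf1 and Bcl11b, had medians of 18.2 and 49.4. In none of the 22 did all WT DMM libraries exceed all sham libraries, as in 1.07% of all regions called higher, while 1 of the 2 lower regions did not overlap (26.2% of all regions called lower). In 21 of the 22 the near-empty library had 0 reads. Without it, an alternative chosen after seeing the data, 20 of the 22 higher regions and 1 lower region did not overlap, against 85.3% of all regions called higher and 31% of all called lower.

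limma on log2(normalized count + 1), with Benjamini-Hochberg adjustment over all 43378 regions, called 0 of these 24 and 7 regions (0.0161%) of the table. At an unadjusted p under 0.05 it had 0 of the 24 and 361 of the table. Without the near-empty library it called 20 of the 24, 19 higher and 1 lower, and 77.8% of the table.

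Between the DMM groups, 21 of the 49 regions were called higher in MUT DMM than in WT DMM and 28 lower, so that all 49 were called (98.9% of the table). Over all 65969 regions 34.2% were called higher and 64.7% lower. The higher regions had medians of 27.5 in MUT DMM and 12.2 in WT DMM, the lower ones 2.36 and 7.05. Over all regions the corresponding medians were 32.6 and 15.7 for higher calls, and 2.36 and 7.49 for lower calls. The groups did not overlap in 17 of the 21 higher regions and 11 of the 28 lower ones, against 67% of all regions called higher and 28.6% of all called lower. The near-empty WT DMM library had 0 reads in 15 of the 21 higher regions, where this lowers the WT DMM mean, and in 15 of the 28 lower ones. Without that library 18 of the 21 higher and 22 of the 28 lower regions did not overlap, where the shares of all regions called in the same direction were 70.5% and 81.7%. limma called 0 of the 49 and 0 of the 65969 regions; at an unadjusted p under 0.05 it had 4 of the 49 and 2869 overall. Without the near-empty library it called 7 of the 49 and 15.7% of all regions.

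Against WT sham, 29 of the 69 regions were called higher in MUT DMM and 40 lower. The background was 43.2% higher and 56.1% lower, 99.3% in all. Lower regions had a median of 0.37 normalized counts in MUT DMM and 10.4 in sham (0.735 in MUT DMM over all regions called lower). Higher regions had medians of 54.0 and 23.8 (42.7 and 19.2 over all regions called higher). The groups did not overlap in 20 of the 29 higher and 36 of the 40 lower regions, close to the background of 75.2% of all regions called higher and 87.5% of all called lower. limma called 33 of the 69, 31 lower and 2 higher, at adjusted p from 0.00203 to 0.0491, and 47.2% of the table. These 33 lay at all 9 genes that had regions, with 9 at Bach2, 6 at Pax5, 5 at Bcl11b, 4 at Ikzf1, 3 at Ebf1, 2 each at Bcl11a and Spi1, and 1 each at Ikzf3 and Ptprc. In 18 of the 31 lower ones both MUT DMM libraries had 0 reads. A fitted log2 difference there depends on the added 1 and is no bound on the fold. Among the 31 of the 69 regions whose mean over libraries was at least 10, limma called 0, with 11 at an unadjusted p under 0.05, and it called 0 of all 33801 such regions. Leaving out the deeper MUT DMM library gave 56 calls, with the lone shallower library assumed to vary like the sham group.

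**Figure D1:**
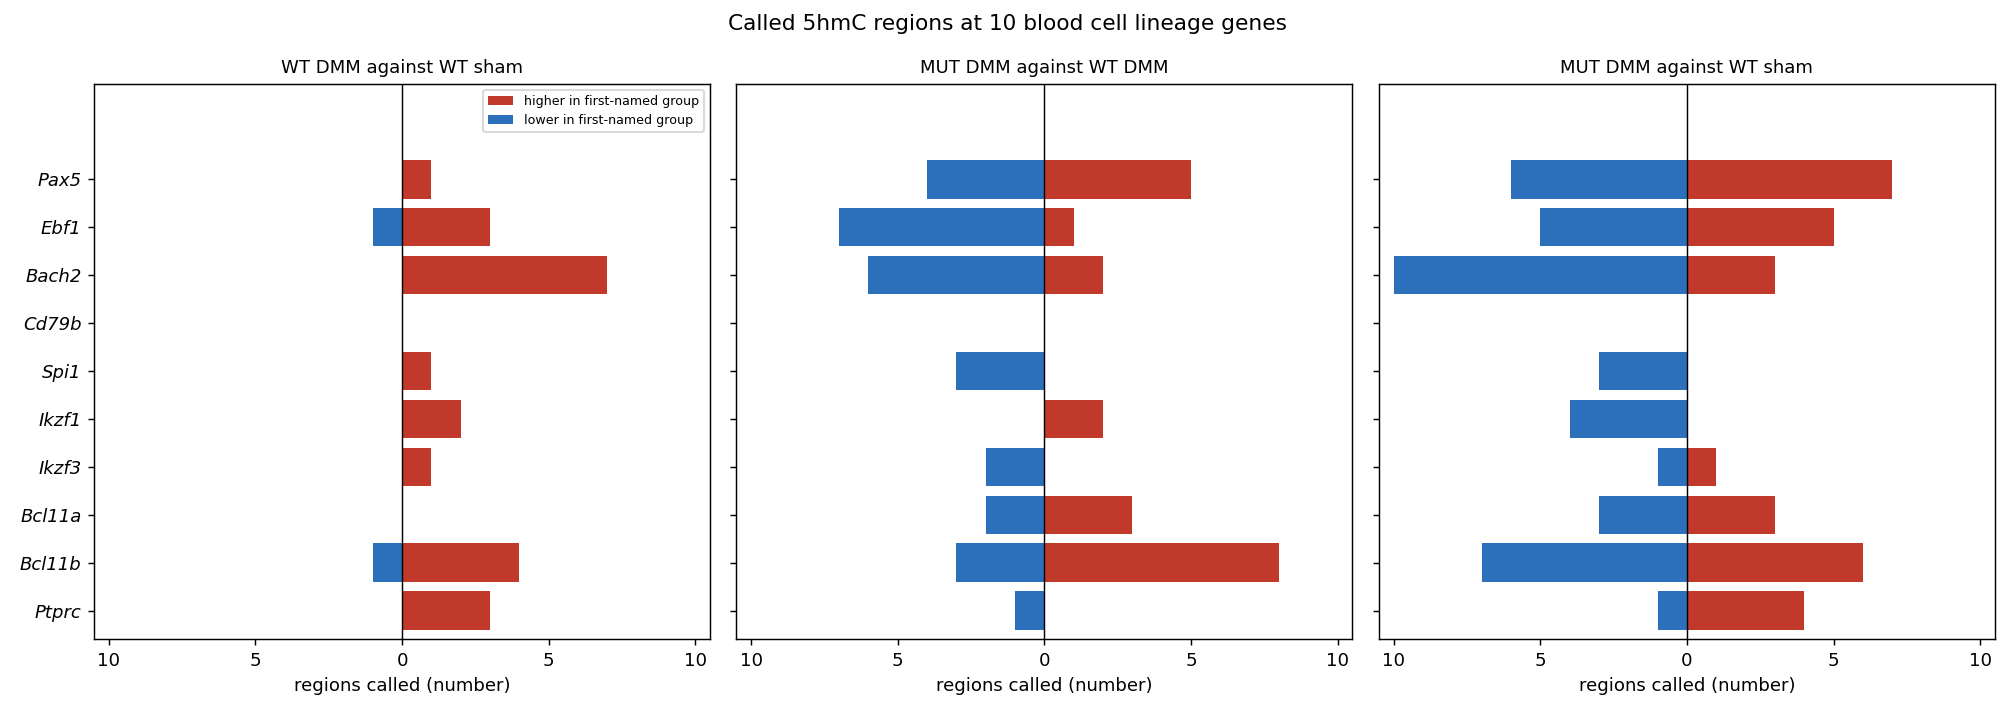
Number of regions called at each of the 10 genes in the 3 comparisons, with bars to the right for regions higher in the first-named group and bars to the left for lower ones. Bach2 had 7 higher and no lower regions in WT DMM against WT sham and 10 lower regions in MUT DMM against WT sham, Bcl11b had 8 higher regions in MUT DMM against WT DMM, and Cd79b had no bar.

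**Figure D2:**
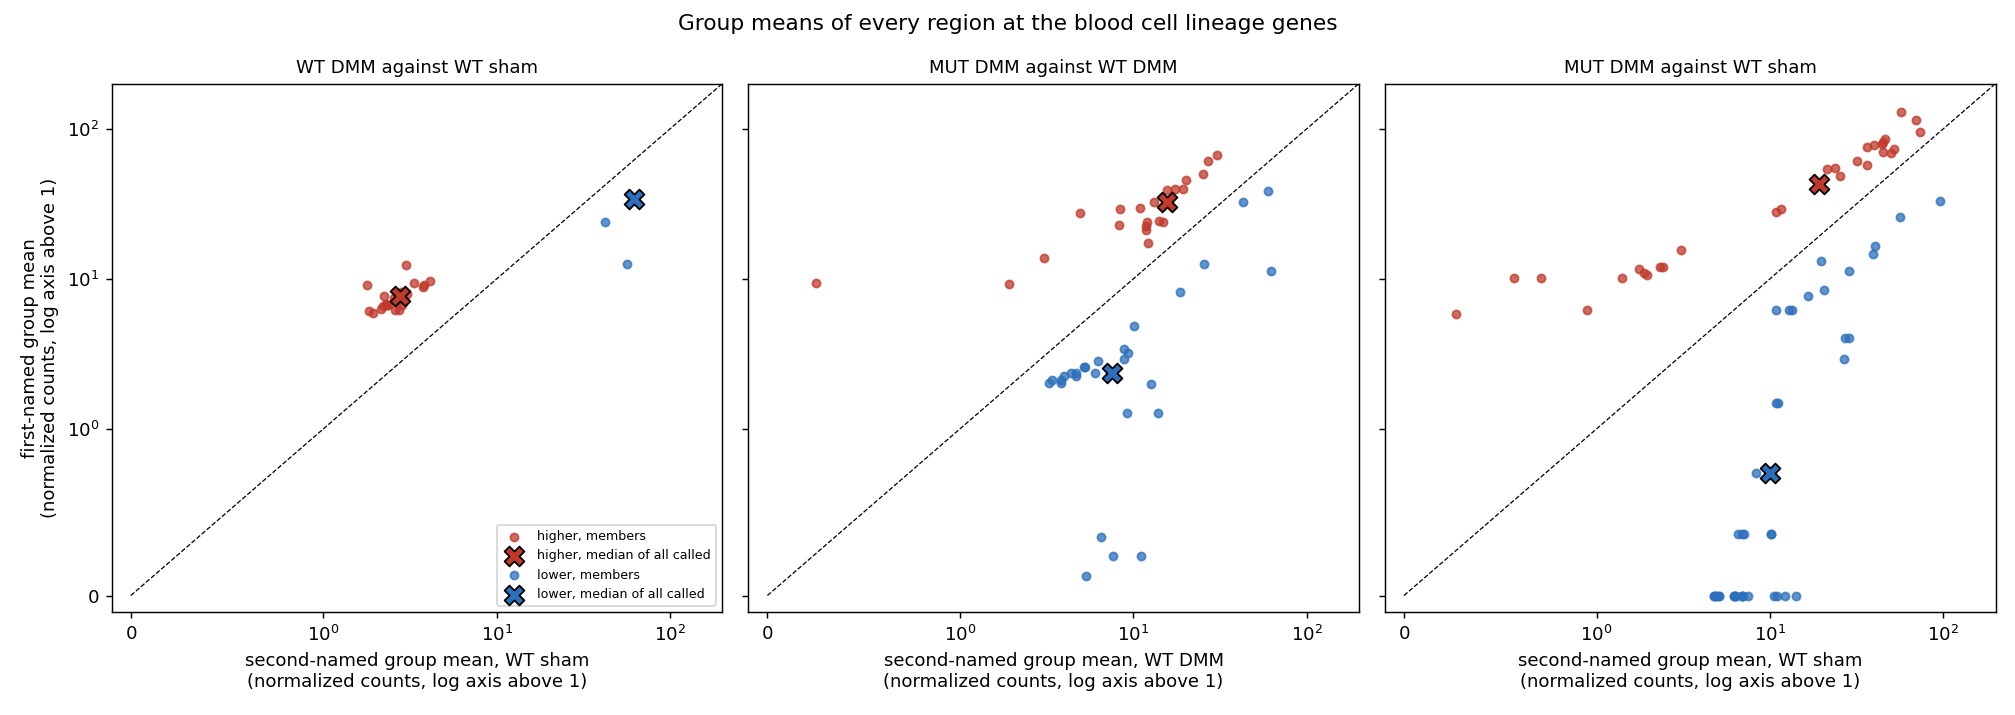
Mean normalized count of the first-named group (y axis) against that of the second-named group (x axis) for each of the 142 regions, both axes logarithmic above 1 and linear below, with the dashed line marking equal means and crosses the medians of all called regions. Higher regions in WT DMM against WT sham sit close together near 7.13 and 2.62, and a row of lower regions in MUT DMM against WT sham lies at 0 on the y axis.

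Pax5 (chr4:44524748-44710694) held 1 higher region after DMM in WT, 5 higher and 4 lower regions in MUT DMM against WT DMM, and 7 higher and 6 lower in MUT DMM against WT sham. The WT region with the smallest adjusted p, chr4:44614161-44614360, had 0, 6.67 and 17.7 normalized counts in the WT DMM libraries and 2.88, 2.15 and 3.42 in sham. Only the near-empty library was below the sham values, and the means were 8.12 ± 8.94 (SD, n = 3) and 2.82 ± 0.637 (SD, n = 3). Between the DMM groups chr4:44679921-44680300 had 1.17 and 3.55 in the deeper and shallower MUT DMM libraries and 0, 5.27 and 12.8 in WT DMM. Both MUT DMM values lay between the near-empty library and the other 2.

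Against sham, 5 Pax5 regions had 0 reads in both MUT DMM libraries and were lower by limma. The sham libraries had 9.54, 12.7 and 9.15 normalized counts at chr4:44653321-44653780 (log2 difference -3.51 ± 0.43 (SE), limma adjusted p = 0.00213), the region of smallest authors' adjusted p. They had 3.18, 19.7 and 10.3 at chr4:44561921-44562200 and 4.24, 6.95 and 7.49 at chr4:44566841-44567120. These levels are all above the 2.21 that 0 reads allow in the deeper library and all below the 28.3 allowed in the shallower one. The sham values were 3.18, 5.79 and 5.27 at chr4:44569441-44569640 and 5.83, 4.63 and 3.88 at chr4:44654661-44654900, so no group overlapped, and limma's adjusted p for these 4 ran from 0.00203 to 0.0159. One region of the other direction passed, chr4:44723561-44723760, 13.0 kb from the start, with 3 and 1 reads in MUT DMM and 1, 0 and 1 in sham. That is 2.21 and 9.45 normalized counts against 0.53, 0 and 0.28 (log2 difference 2.21 ± 0.52 (SE), limma adjusted p = 0.0184), the shallower library's value being a single read.

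Ebf1 (chr11:44618100-45008096) had 3 higher and 1 lower region in WT DMM against WT sham, 1 higher and 7 lower in MUT DMM against WT DMM, and 5 of each in MUT DMM against WT sham. After DMM, chr11:44675301-44675580 had 0, 10.7 and 16.7 in WT DMM and 1.28, 2.86 and 1.20 in sham, with 2 of 3 libraries above every sham value. The lower region, chr11:44620281-44620480, lay 0.152 kb from a start and had 0, 50.7 and 20.8 against 41.3, 40.1 and 44.9, so the WT DMM values lay on both sides of sham. Of the 7 lower regions between DMM groups, 6 had 1 read in the shallower library and 0 in the near-empty one. At chr11:44668661-44669040 the values were 0.94 and 3.55 in MUT DMM and 0, 3.01 and 11.0 in WT DMM, and the groups overlapped. When the third-listed WT DMM library was left out, the difference of means there went from -2.41 to 0.74.

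Against sham 3 Ebf1 regions were lower by limma. At chr11:44654821-44655100 both MUT DMM libraries were at 0 and sham had 6.36, 6.95 and 5.55 (log2 difference -2.86 ± 0.31 (SE), limma adjusted p = 0.00203), a value no other of the 33 went below. At chr11:44627581-44627800 the deeper and shallower libraries had 2.95 and 0 against 10.6, 12.7 and 9.99 (adjusted p = 0.0339 by limma). At chr11:44934861-44935240 they had 2.95 and 0 against 9.54, 11.6 and 11.4 (adjusted p = 0.0345 by limma). In both, all sham libraries were more than 3 times as high as the deeper library. The region of smallest authors' adjusted p, chr11:44627981-44628320, had 2.95 and 9.45 against 13.3, 11.6 and 15.3 without overlap and did not pass limma (adjusted p = 0.153).

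Bach2 (chr4:32238413-32586109) had the most regions in WT DMM against WT sham, 7 higher and none lower. It had 2 higher and 6 lower in MUT DMM against WT DMM, and 3 higher and 10 lower in MUT DMM against WT sham. After DMM the region chr4:32277901-32278180 had 0, 13.3 and 15.6 normalized counts and sham 5.13, 5.01 and 2.22. The second- and third-listed WT DMM libraries were above every sham value and the near-empty one was at 0. The region chr4:32409101-32409480, 8.14 kb from a start, had 2.57 and 0 in the MUT DMM libraries and 9.56, 15.0 and 17.1 in WT DMM, without overlap. The authors' deposited table gives it an adjusted p of 2.48e-07, and limma gave an unadjusted p of 0.0495 and an adjusted p of 0.675.

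A region overlapping that one, chr4:32409161-32409480, had 8.10 and 0 in MUT DMM and 20.1, 38.2 and 26.9 in sham (log2 difference -3.24 ± 1.02 (SE), limma adjusted p = 0.0448). At nearly the same bases the deeper library thus read below every WT DMM library and every sham library, in comparisons that share the MUT DMM libraries. The WT DMM value of 9.56 was 1 read of the near-empty library. In the shallower library 0 reads allow up to 10.7 normalized counts against WT DMM and 28.3 against sham. That library therefore cannot be placed below 9.56 in WT DMM, or below 20.1 and 26.9 in sham. A second position, chr4:32332501-32332920, was listed with the same bounds in both. It had 51 and 3 reads in MUT DMM. Those were 11.9 and 10.7 normalized counts against 38.2, 50.4 and 98.0 in WT DMM, without overlap, at an unadjusted limma p of 0.0198. On the scale of the comparison with sham they were 37.5 and 28.3 against 126, 138 and 25.5. There the shallower library was above the third-listed sham library, so the groups overlapped. The sham values themselves differed by more than 4 times at this region.

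Of the other 8 Bach2 regions lower than sham by limma, 4 had 0 reads in both MUT DMM libraries. Sham had 6.36, 10.4 and 4.16 at chr4:32306761-32307000, 6.89, 8.10 and 4.16 at chr4:32325961-32326200 and 4.77, 5.79 and 4.72 at chr4:32375941-32376220. The fourth, chr4:32507281-32507540, had 6.36, 8.10 and 4.16 in sham. At 3 regions the deeper library had 1 or 2 reads and the shallower none. They were chr4:32352421-32352680 with 0.74 and 0 against 6.89, 12.7 and 11.1, chr4:32483241-32483500 with 0.74 and 0 against 8.48, 6.95 and 5.83, and chr4:32229341-32229620 with 1.47 and 0 against 6.89, 8.10 and 9.99. In each the deeper library alone was below the lowest sham value by more than 4 times. The eighth, chr4:32371181-32371460, was read in both MUT DMM libraries, with 19.9 and 9.45 against 37.1, 39.4 and 41.6 (log2 difference -1.45 ± 0.44 (SE), limma adjusted p = 0.0407).

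Cd79b (chr11:106311341-106314562) had no listed region in any of the 3 comparisons. It is the shortest of the 10 genes. Unlisted regions can be unread or unchanged, so no level is known for it.

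Spi1 (chr2:91082374-91115759) was short but held 7 listed regions over the 3 comparisons, 1 higher after DMM in WT and 3 lower in each comparison of MUT DMM. In the gene bounds this was 21.0 regions per 100 kb, where 10039 protein-coding genes of at least 20 kb had a median of 7.39 (quartiles 4.39 and 11.6). Spi1 had the highest density of the 9 genes with regions, and Ptprc the lowest, 4.43. At chr2:91092821-91093100 WT DMM had 0, 4.00 and 19.8 and sham 2.56, 4.29 and 2.22. The third-listed library alone exceeded every sham value, and without it the difference of means fell from 4.90 to -1.02. Between the DMM groups chr2:91089641-91090020 had 37.2 and 39.1 in MUT DMM and 0, 76.0 and 102 in WT DMM. The MUT DMM libraries had 159 and 11 reads there, were close to each other, and were below both well-read WT DMM libraries. With the near-empty library in the fit, limma's log2 difference had the opposite sign, 0.97 ± 1.93 (SE), at an unadjusted limma p of 0.63. The difference of means was -21.3, or 0.165 without the third-listed WT DMM library, where the near-empty library is 1 of the 2 left.

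Against sham 2 Spi1 regions had 0 reads in both MUT DMM libraries and were lower by limma. Sham had 5.83, 3.47 and 5.27 at chr2:91111181-91111520 (log2 difference -2.53 ± 0.30 (SE), limma adjusted p = 0.00203) and 5.30, 5.79 and 4.16 at chr2:91090361-91090580 (adjusted p = 0.00203 by limma). The third was listed in both comparisons of MUT DMM from the same start. At chr2:91107521-91107880 the values were 2.57 and 7.11 against 9.56, 9.78 and 11.0 in WT DMM, and at chr2:91107521-91107720 they were 5.89 and 9.45 against 17.5, 15.1 and 16.9 in sham. Neither pair of groups overlapped, and neither passed limma (adjusted p = 0.743 and 0.117).

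Ikzf1 (chr11:11684962-11772930) had 2 higher regions in WT DMM against WT sham, 2 higher in MUT DMM against WT DMM, and 4 lower in MUT DMM against WT sham. The higher regions of the mutant were the pair at the promoter whose sequence is given above. At chr11:11685801-11686000, 0.0245 kb from the start, MUT DMM had 27.4 and 21.3 normalized counts and WT DMM 19.1, 14.3 and 8.52, without overlap (24.4 ± 4.27 (SD, n = 2) against 14.0 ± 5.31 (SD, n = 3)). The reads there were 117 and 6 in MUT DMM and 2, 19 and 14 in WT DMM, the 2 being those of the near-empty library. At chr11:11685481-11685680 MUT DMM had 24.3 and 17.8 and WT DMM 0, 21.8 and 14.0, and the groups overlapped. limma's unadjusted p was 0.382 and 0.322, and neither difference passed its threshold. No region at this promoter was listed against sham.

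After DMM in WT, chr11:11716241-11716460 of Ikzf1, 26.2 kb from the start, had 0, 10.7 and 15.6 and sham 4.81, 4.29 and 2.22. An overlapping region, chr11:11716341-11716620, had 0 reads in both MUT DMM libraries and 9.01, 10.4 and 3.05 in sham (adjusted p = 0.00790 by limma). The comparisons share the sham libraries. The other 3 regions lower than sham all passed limma. At chr11:11774621-11775000 sham had 12.2, 15.1 and 9.43 and both MUT DMM libraries were at 0 (log2 difference -3.70 ± 0.47 (SE), limma adjusted p = 0.00232). At chr11:11725161-11725540 the MUT DMM values were 5.89 and 0 against 21.7, 26.6 and 31.9, and at chr11:11725581-11725960 they were 8.10 and 0 against 23.3, 26.6 and 31.1. The sham levels of this pair, 26.8 and 27.0 on average, are close to the 28.3 that 0 reads allow in the shallower library.

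Ikzf3 (chr11:98464610-98546031) had 1 higher region in WT DMM against WT sham, 2 lower in MUT DMM against WT DMM, and 1 of each in MUT DMM against WT sham. At chr11:98471121-98471400 WT DMM had 0, 6.67 and 14.6 and sham 2.88, 3.58 and 1.54. At chr11:98523441-98523720 MUT DMM had 0.47 and 0, from 2 reads in the deeper library, and WT DMM 19.1, 2.26 and 11.6, without overlap. A nearby region, chr11:98525001-98525220, had 0 reads in both MUT DMM libraries and 5.83, 10.4 and 4.44 in sham (log2 difference -2.91 ± 0.43 (SE), limma adjusted p = 0.00392). The higher region, chr11:98545881-98546160, near 1 end of the gene, had 38.3 and 113 against 30.2, 39.4 and 39.4; the deeper library lay within the sham range and the shallower one far above it.

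Bcl11a (chr11:24076564-24173558) had no region in WT DMM against WT sham, 3 higher and 2 lower in MUT DMM against WT DMM, and 3 of each in MUT DMM against WT sham. Its 6 higher regions all lay within 5 kb of a start. Of its 5 lower regions, chr11:24078461-24078720 also lay within 5 kb of a start and the other 4 lay 16.6 to 73.7 kb from one. At chr11:24077541-24077840, 3.00 kb from a start, MUT DMM had 105 and 85.0 and sham 70.5, 82.2 and 68.5, without overlap (95.2 ± 14.3 (SD, n = 2) against 73.8 ± 7.39 (SD, n = 3); adjusted p = 0.216 by limma). The overlapping region chr11:24077261-24077800 had 66.2 and 67.5 in MUT DMM and 0, 63.2 and 28.0 in WT DMM. Deep in the gene, chr11:24147421-24147800 had 2.81 and 3.55 against 0, 9.78 and 18.3, with overlap only through the near-empty library. Of the regions lower than sham, 2 passed limma. They were chr11:24154241-24154520 with 13.2 and 9.45 against 26.5, 27.8 and 30.8 (log2 difference -1.26 ± 0.41 (SE), limma adjusted p = 0.0491), and chr11:24097181-24097380 with 0.74 and 0 against 7.42, 6.95 and 5.27 (log2 difference -2.50 ± 0.43 (SE), limma adjusted p = 0.00676).

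Bcl11b (chr12:107910403-108004145) had the most regions of the 10 genes, 29 over the 3 comparisons. They were 4 higher and 1 lower in WT DMM against WT sham, 8 higher and 3 lower in MUT DMM against WT DMM, and 6 higher and 7 lower in MUT DMM against WT sham. After DMM, chr12:107894141-107894380 had 0, 12.01 and 8.33 against 1.60, 3.58 and 1.71 in sham. The lower region, chr12:107916401-107916660, was the only one of the 24 whose groups did not overlap with every library kept, with 0, 18.7 and 18.7 against 40.7, 47.9 and 81.5. The well-read WT DMM libraries were both at less than 0.5 of the lowest sham value. limma's unadjusted p was 0.0697 with the near-empty library in the fit. In the same part of the gene, chr12:107916741-107917020 had 45.2 and 46.2 in MUT DMM and 0, 36.9 and 23.7 in WT DMM, without overlap.

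In 4 positions Bcl11b regions were higher in MUT DMM than in both WT groups, the comparisons sharing the MUT DMM libraries. The position that passed limma against sham, chr12:107898081-107898280, had 70.0 and 85.0 against 47.7, 37.0 and 35.0 (log2 difference 0.95 ± 0.30 (SE), limma adjusted p = 0.0456). Its counterpart chr12:107898101-107898460 had 28.5 and 49.8 against 19.1, 16.6 and 11.6 in WT DMM. It lay 105 kb from the start, outside the gene, and had 95 and 9 reads in MUT DMM. Upstream of the gene, chr12:108050161-108050420 had 19.4 and 35.5 against 0, 7.52 and 7.31, and chr12:108050261-108050640 had 106 and 123 against 72.1, 60.2 and 76.0. Neither comparison overlapped, and limma's adjusted p against sham was 0.0540.

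Against sham 4 Bcl11b regions were lower by limma. At chr12:108001141-108001520, 2.08 kb from a start, both MUT DMM libraries were at 0 and sham had 7.42, 23.1 and 11.9 (log2 difference -3.79 ± 0.61 (SE), limma adjusted p = 0.00589). Both were also at 0 at chr12:108031721-108032000, where sham had 4.77, 4.63 and 5.27, and at chr12:108032421-108032620, where sham had 4.77, 12.7 and 3.33. At chr12:108013601-108013900 MUT DMM had 0.74 and 0 against 5.83, 6.95 and 8.04. This last region overlapped one that was higher in WT DMM than in sham, chr12:108013541-108013740, with 0, 9.34 and 10.4 against 1.92, 2.15 and 2.56. The sham means of the 4 lower regions ran from 4.89 to 14.2, and that of the higher one was 39.9.

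Ptprc (chr1:138062859-138175756) had 3 higher regions in WT DMM against WT sham, 1 lower in MUT DMM against WT DMM, and 4 higher and 1 lower in MUT DMM against WT sham. At chr1:138197721-138198040 WT DMM had 0, 5.34 and 22.9 and sham 5.13, 2.86 and 2.05. The height came from the third-listed library, without which the difference of means went from 6.07 to -0.677. Inside the gene, chr1:138111741-138111940 had 15.7, 2.67 and 18.7 against 5.13, 2.86 and 1.03, where the near-empty library's value was a single read. The overlapping chr1:138111721-138112000 had 0.47 and 0 in MUT DMM and 9.56, 2.26 and 11.0 in WT DMM, without overlap between groups; its p from limma, before adjustment over all regions, was 0.0508. Both MUT DMM libraries together held 2 reads there, and WT DMM held 1, 3 and 18.

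Against sham the lower region of Ptprc, chr1:138032801-138033080, lay outside the gene and had 0.74 and 0 in MUT DMM and 9.54, 8.10 and 12.8 in sham (log2 difference -3.06 ± 0.52 (SE), limma adjusted p = 0.00663). The 4 higher regions had 2 reads each in the shallower library, 18.9 normalized counts, and 2 to 6 reads in the deeper one. In 3 of these 4 the groups overlapped, and none passed limma. The pattern of few reads was wider: in 11 of the 29 higher regions at the 10 genes the sham mean was under 4 normalized counts and the shallower library held 1 to 3 reads. The shallower library had the higher value in 24 of the 29.

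**Figure D3:**
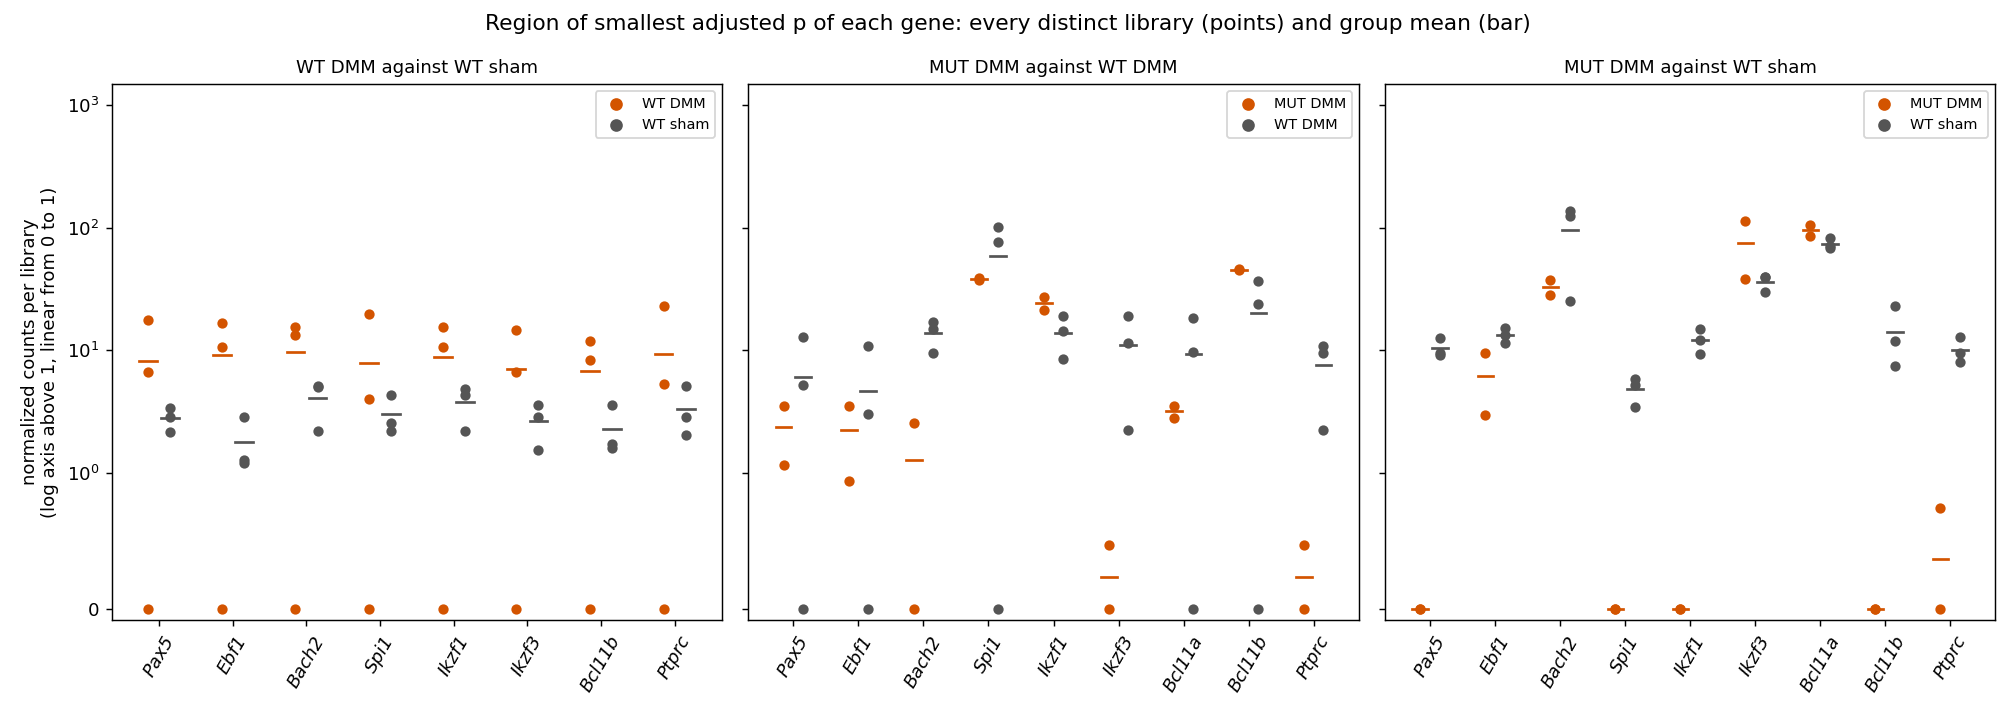
Normalized counts of every distinct library (points) and the group mean (bar) at the region of smallest authors' adjusted p of each gene in each comparison, on an axis that is logarithmic above 1 and linear from 0 to 1. In WT DMM against WT sham each gene has a WT DMM point at 0, the near-empty library, and in MUT DMM against WT sham Pax5, Spi1, Ikzf1 and Bcl11b have both MUT DMM points at 0.

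The comparisons met at 18 pairs of overlapping regions and at no position in all 3. Regions of the mutant against WT DMM and against sham formed 15 of these pairs, 6 higher in both, 6 lower in both and 3 in opposite directions. The other 3 pairs joined a region higher in WT DMM than in sham to a region lower in MUT DMM, at Ptprc (against WT DMM), Ikzf1 and Bcl11b (both against sham). Since the comparisons share libraries, no test of these overlaps is given.

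By RefSeq bounds 110 of the 142 regions lay in the gene itself. Starts are known for 7 of the genes. In MUT DMM against WT DMM 7 of 11 regions within 5 kb of a start were higher (63.6%), as were 14 of 33 farther ones (42.4%). Over all called regions the shares were 51.4% and 30.7%. In MUT DMM against WT sham 5 of 8 near regions were higher (62.5%) and 23 of 56 farther ones (41.1%), where all called regions had 40.7% and 44.0%. For these genes only starts of the same gene counted, while for all called regions any RefSeq start counted. The shares are therefore not like for like. The 5 kb limit was chosen with the values known, the regions number few, and no test was made. The near and higher regions were at Pax5, Ebf1, Ikzf1, Bcl11a and Bcl11b, and none at Bach2 or Ptprc. For Bach2 the only start known, 32417435, lay inside the gene bounds, so regions near the ends of the gene counted as far. One of these, chr4:32233161-32233440, higher in WT DMM than in sham, lay 4973 bases outside the bounds and 184 kb from that start.

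**Figure D4:**
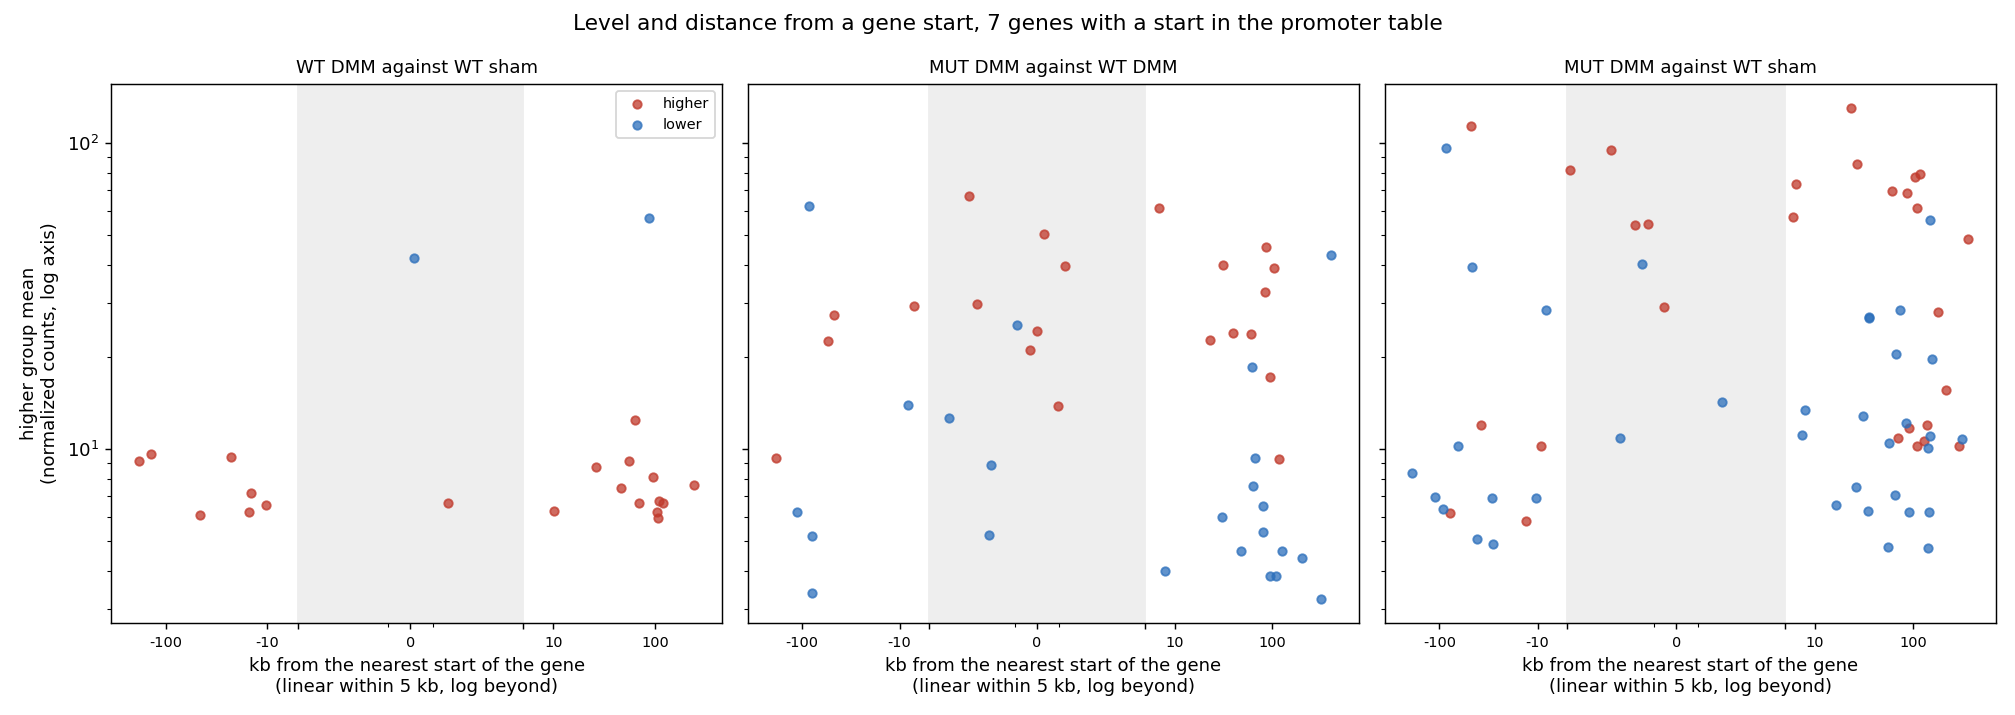
Higher group mean in normalized counts (y axis, logarithmic) against distance in kb from the nearest start of the gene (x axis, linear within the shaded 5 kb and logarithmic beyond) for the 7 genes with a start in the promoter table. In MUT DMM against WT DMM 7 of the 11 points in the shaded band are higher regions. The only start known for Bach2 lies inside its gene bounds.

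Other genes of the blood lineages, from lists written with earlier results of these data known, are described next. Of all 21900 RefSeq protein-coding genes 45.3% held a called region in WT DMM against WT sham, 59.8% in MUT DMM against WT DMM and 61.1% in MUT DMM against WT sham. Each list is given by its regions and genes called, with no test. Over all listed regions 93.2% were called higher after DMM in WT. The share was 34.2% in MUT DMM against WT DMM and 43.2% in MUT DMM against WT sham. The B cell list had 1 of 10 genes with a region after DMM in WT, 4 between the DMM groups and 5 against sham. Blk, a kinase of B cell receptor signalling, had 1 higher and 2 lower regions in each comparison of MUT DMM. Cd22, an inhibitory receptor of B cells, also had 1 higher and 2 lower between the DMM groups and none against sham.

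The T and NK cell list had 4, 9 and 6 of 10 genes with regions in the 3 comparisons. Between the DMM groups it had 7 higher and 9 lower regions, and the same numbers against sham. Tcf7, a factor of T cell progenitors, had 1 higher and 3 lower regions against WT DMM and none against sham. Zap70, a kinase of T cell receptor signalling, had 1 higher and 3 lower against sham. Ncr1 went the other way there, with 3 higher and none lower, after 1 higher and 3 lower against WT DMM.

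For myeloid genes 9 of 12 had a region after DMM in WT, with 9 regions higher and 1 lower. Against WT DMM the list had 5 higher and 7 lower regions in MUT DMM (41.7% higher, 34.2% over all listed regions). Against sham it had 4 higher and 15 lower regions at 8 genes (21.1% higher, 43.2% over all listed regions). Csf3r, the receptor for granulocyte colony-stimulating factor, and Cebpe, a factor of granulocyte maturation, had 3 lower regions each and none higher. Cebpa had 2 of each. Erythroid and megakaryocyte genes, 10 without 1 that is not reported, had 3 higher and 1 lower region after DMM in WT, 3 higher and 2 lower against WT DMM, and 5 lower and none higher against sham.

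Pan-leukocyte genes, which are used in nearly all white cells, had 5 higher and 1 lower region after DMM in WT. They had 4 higher and 14 lower against WT DMM and 4 higher and 20 lower against sham. The shares higher were 22.2% and 16.7%, where all listed regions had 34.2% and 43.2%. Itgb2, an integrin chain of leukocytes, and Laptm5 had 5 lower regions each against sham and none higher. Vav1, a signalling protein, went the other way, with 3 higher and 1 lower against WT DMM and 2 higher against sham. Stem and progenitor genes had 20 higher and 2 lower regions after DMM in WT. They had 10 higher and 43 lower against WT DMM (18.9% higher) and 20 higher and 30 lower against sham (40.0%). Etv6, a factor of blood stem cells, had 3 higher and 14 lower against WT DMM and 2 higher and 12 lower against sham. Runx1, another, had 1 higher and 7 lower, then 2 higher and 10 lower. The members did not share a direction against sham, where Myb had 4 higher regions and Hhex and Meis1 3 each, all with none lower; these 3 were chosen after their values were seen. Since the tables list only regions with a difference, the level of these markers in a group, and so the share of blood or marrow cells in the tissue, was not measured.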

How the data were processed

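Knee cartilage DNA was profiled for 5hmC by reduced representation hydroxymethylation profiling, with 15 PCR cycles per the labels' protocols. Tools named in the submitters' processing notes are HISAT2 2.1.0, SAMtools, bedtools, Trim Galore 0.5.0 and bcl2fastq 2.20.0, with the genome mm10. How the regions were called and normalized was not given in the sources used here. From the authors came 1 table per comparison, deposited as a list of only those regions whose best window of 200 bases had a p-value of at most 0.0001, so a region without a difference has no value here. Per the file headers each holds the libraries' normalized counts (coverage signal scaled by the authors, 3 joined in a cell), group means, the deposited log2 fold change, a p-value and an adjusted p-value.

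Each library's values were whole multiples of a step in 99.9872% to 100% of regions (tolerance 0.02 normalized counts), and a step was read as 1 read. Count models were not run, because the values are joined, already normalized and chosen by a p-value. Identical MUT DMM entries were counted once. Columns carry no replicate numbers, so libraries are named by listed order or depth. PCR reads carry no molecular identifiers, so limits on a count of 0 cover counting error only.

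limma 3.58.1 (R 4.3.3, trended prior) was fitted to log2(value + 1) of every region in a table. p-values were adjusted by Benjamini-Hochberg, with a threshold of 0.05. Because the regions were chosen for a difference in the same libraries, limma's p-values are a description of spread. Alternatives were other pseudocounts, stricter thresholds, a minimum mean, only regions in the gene or within 5 kb of it, libraries rescaled to equal sums, all 3 joined values in place of distinct libraries, and leaving out each library. RefSeq tables of GRCm38.p6 gave gene bounds and promoters. Values by library are given for the smallest authors' adjusted p of each gene and comparison, regions passing limma, and regions at a promoter window; from other lists up to 3 genes are named. The members and lists were chosen with earlier results of these data known. Of 1 list a gene is not reported here, and it was left out of that list's counts.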

Additional observations from a re-analysis of the deposited data

How the results depend on the processing

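Of 51 alternative counts at the 10 genes other than those leaving out a library, 4 differed by more than 1.5 times from the value reported. With the higher group mean at least 10 normalized counts, 1 region was higher in WT DMM than in sham (22 without the minimum), 9 were lower in MUT DMM than in WT DMM (28) and 22 lower than in sham (40). With a mean over libraries of at least 10, limma called 0 regions against sham (33). In all 4 the minimum removes regions. Some regions that limma called without the minimum stayed in the fit and lost their calls, among them chr4:32371181-32371460 at Bach2. The lowest limma adjusted p among the 31 regions left was 0.143. The cause was not tested.

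Leaving out each library in turn moved the counts as follows. In WT DMM against WT sham 19 to 22 regions were higher and 2 to 5 lower, the 5 without the third-listed WT DMM library, and limma called 0 to 20, the 20 without the near-empty library. In MUT DMM against WT DMM 21 to 28 were higher, 21 to 28 lower, and limma called 0 to 7, the 7 without the near-empty library. In MUT DMM against WT sham 26 to 29 were higher, 40 to 43 lower, and limma called 24 to 56, with 24 without any of the sham libraries and 56 without the deeper MUT DMM library. For regions without overlap, only the library of fewest reads in WT DMM or in MUT DMM was left out, alternatives chosen after seeing the data. Such a removal can keep or raise this count but cannot lower it. Without the near-empty library the count was 21 in WT DMM against WT sham (1 with it) and 40 in MUT DMM against WT DMM (28). Without the shallower MUT DMM library it was 31 in MUT DMM against WT DMM (28) and 59 in MUT DMM against WT sham (56). Of 27 regions given in full, 4 changed sign, each without the third-listed WT DMM library. Over the left-out libraries the difference of means ran from -0.677 to 10.8 at Ptprc from 138197721, from -1.02 to 8.87 at Spi1 from 91092821, from -4.74 to 0.74 at Ebf1 from 44668661 and from -51.0 to 0.165 at Spi1 from 91089641.

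No paired analysis was possible because the columns carry no replicate numbers. Depth limits most of all the shallower MUT DMM library, in which 0 reads allow up to 28.3 normalized counts against sham, and the near-empty WT DMM library, in which they allow up to 47.0. Regions without a listed difference have no value, no background level was subtracted, and the fit cannot separate the mutation from surgery in MUT DMM against WT sham.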

Other observations

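Close relatives of these genes also held regions. Pax2, a factor of kidney and ear development, had 11 higher and no lower regions in MUT DMM against WT DMM and 4 higher and 1 lower against sham. Ikzf2, a relative of Ikzf1, had 11 higher and no lower regions in WT DMM against WT sham. It had 5 lower and no higher in MUT DMM against WT DMM, and 2 of each against sham. Ebf3, a relative of Ebf1, had 6 higher and 2 lower against WT DMM and 3 higher and 6 lower against sham. As a list, the 12 relatives had 53.2% of their regions higher in MUT DMM than in WT DMM and 45.5% higher than in sham, where all regions had 34.2% and 43.2%.

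Genes of the other tissues of the knee gave these shares of higher regions in the same comparisons. Cartilage genes had 27.1% higher against WT DMM and 37.0% against sham, with Sox5 at 4 higher and 19 lower and at 7 higher and 23 lower. Endothelial genes had 22.2% and 31.9%, with Cdh5, the junction protein of vessels, at 4 higher and 11 lower and at 5 higher and 15 lower. The 8 genes of osteoclasts and bone had few regions, 6 higher and 2 lower, then 6 higher and 3 lower. After DMM in WT, 95.6% of cartilage, 82.9% of endothelial and 100% of osteoclast and bone regions were higher. These are counts of calls with no test between lists.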
